A study of Mus musculus with 37 samples.

Results

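The hepatokines described here are secreted liver proteins with hormone-like roles, encoded by Fetub, Ahsg, Enho, Angptl6, Fgf21 and Gdf15. All probes carrying these gene symbols were taken, which gave 7 probes of 6 genes among 30146 probes of 21450 genes. Fgf21 had 2 probes and each other gene had 1. They were measured with TempO-Seq, an assay that sequences short probe pairs after they have bound a transcript side by side and been joined. The samples were scraped sections of formalin-fixed liver from adult WT mice of the CD1 stock, gavaged once a day with HFPO-DA, a short-chain perfluoroalkyl ether acid. Males received 84 to 85 doses from 6 weeks of age and had been mated. Females received 53 to 65 doses from 11 weeks of age and were killed on lactation day 20 or 21, so sex, age, number of doses and lactation cannot be told apart. Every control mouse received the same gavage regimen at 0 mg/kg. There were 5 males and 5 females at 0 mg/kg and as many at 0.1 mg/kg, 5 males and 4 females at 0.5 mg/kg, and 4 of each sex at 5 mg/kg. Each sample came from 1 mouse. The number of sections scraped per mouse is not given, and a difference between mice includes the difference between the sections taken.

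Hepatokines carry information on the metabolic state of the liver to other organs. Fetub and Ahsg encode fetuin-B and fetuin-A, plasma glycoproteins of the cystatin superfamily that hepatocytes secrete in large amounts. Fetuin-A keeps calcium phosphate in solution and can inhibit the insulin receptor, and fetuin-B inhibits ovastacin, the protease that hardens the coat of the egg. Enho encodes adropin, a peptide linked to glucose and lipid use, and Angptl6 encodes an angiopoietin-like growth factor linked to energy expenditure. Fgf21 is a fasting hormone whose gene is a textbook target of the nuclear receptor PPARα. Gdf15 is a distant member of the TGF-β family that is induced by cell stress and acts through a receptor in the hindbrain.

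The fetuin genes are neighbours. On GRCm38, Ahsg lay at chr16:22891277-22899449 and Fetub at chr16:22918334-22939778, both on the forward strand and 18.9 kb apart. Their relatives Hrg, Kng2 and Kng1 followed without any other protein-coding gene in between, and the 5 genes spanned 191 kb. Fgf21 lay at chr7:45613886-45615490, Gdf15 at chr8:70629393-70632456, Angptl6 at chr9:20873808-20879727 and Enho at chr4:41638144-41640324, all on the reverse strand. Sequences upstream of the RefSeq transcription start (GRCm38.p6) are shown for the fetuins, whose probes were lower in both sexes at 5 mg/kg, and for Fgf21, whose probes were not called with all counts. RefSeq windows were found for 5 of the 6 members, Enho being the one without. Capitals mark matches to any of 5 motifs searched on both strands. The windows are chr16:22891765-22892014 for Ahsg, chr16:22918132-22918333 for Fetub and chr7:45615491-45615740 on the reverse strand for Fgf21. For Fetub, the last 48 bases before the start were left out because they lie in an annotated exon. The Ahsg window lies within the gene span given above, because the RefSeq start is further downstream. Fetub had another RefSeq window, chr16:22919972-22920221, which held no match and is not shown.
Ahsg: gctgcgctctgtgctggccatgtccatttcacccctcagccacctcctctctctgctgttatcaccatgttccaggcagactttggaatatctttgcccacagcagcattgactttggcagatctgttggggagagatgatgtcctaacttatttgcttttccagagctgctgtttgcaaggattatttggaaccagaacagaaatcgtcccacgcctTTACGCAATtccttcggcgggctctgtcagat
Fetub: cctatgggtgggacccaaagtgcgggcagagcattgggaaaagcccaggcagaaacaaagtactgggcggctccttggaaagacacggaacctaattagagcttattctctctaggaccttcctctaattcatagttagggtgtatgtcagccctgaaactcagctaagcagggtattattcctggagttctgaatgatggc
Fgf21: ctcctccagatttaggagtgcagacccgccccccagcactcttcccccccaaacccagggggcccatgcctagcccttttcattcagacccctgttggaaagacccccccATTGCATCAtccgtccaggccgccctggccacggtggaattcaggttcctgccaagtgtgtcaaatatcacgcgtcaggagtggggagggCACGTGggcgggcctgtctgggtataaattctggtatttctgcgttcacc
The Ahsg window held 1 match to TTNNGCAAT, a C/EBP-type motif, from base 32 to base 24 before the start. That motif was found in 1.93% of 32851 RefSeq upstream windows of 250 bases. The Fgf21 window held a match to the amino acid response motif TGATGNAAT on the opposite strand, from base 140 to base 132, and a CACGTG E-box from base 50 to base 45. These motifs were found in 0.816% and 6.02% of all windows. The nuclear receptor hexamer AGGTCA was found in 14.0% of all windows, and its direct repeat with 1 base between, whose matches also count as hexamers, in 0.0335%. Neither was matched in the bases shown. A match or its lack describes only these letters.

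The libraries of males held 2101495 to 10548222 counts and those of females 7952605 to 13878254, and the shallowest library was a male at 5 mg/kg. In males the median was 8012441 counts at 0 mg/kg and 5117935 at 5 mg/kg, so the highest dose went with lower depth. In females these medians were 10232093 and 10380108. Levels are given as CPM, in which counts are scaled to a common library total after TMM adjustment, and can be compared between mice but not between genes. All 7 hepatokine probes passed edgeR's filter on low counts, which kept 18570 probes. A probe was called when its Benjamini-Hochberg adjusted p in edgeR's quasi-likelihood test was under 0.10. Its p-values set a difference between groups against the spread between mice, each counted as 1 sample. That spread was estimated over all 8 groups together, with information shared across probes. Tissue was not sorted, and fewer cells of a type and less RNA per cell cannot be told apart.

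At 5 mg/kg, 3 of the 7 probes were called in males and 3 in females, each of them lower than in controls of the same sex. Fetub and Ahsg were called in both sexes, Enho in males and Angptl6 in females. Over all probes, 12.7% were called in males at this dose (8.49% lower) and 4.52% in females (2.26% lower). At 0.5 mg/kg only Ahsg in males was called, where 0.625% of all probes were (0.242% lower). None of the 7 was called in females at 0.5 mg/kg, where 0.113% of all probes were, nor in either sex at 0.1 mg/kg, where edgeR called 0% of all probes. At an unadjusted p under 0.05 these 3 comparisons had 0, 1 (Gdf15, females at 0.1 mg/kg) and 1 (Ahsg, males at 0.1 mg/kg) of the 7 probes, and DESeq2 called 0 in each. From 0.5 to 5 mg/kg, Fetub in males was the 1 call among the 7 probes, with 8.73% of all probes called (5.57% lower). In females this step gave 0 calls with edgeR against 1.48% of all probes, 2 probes at an unadjusted p under 0.05, and 2 calls with DESeq2, both times Ahsg and Fetub.

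**Figure D1:**
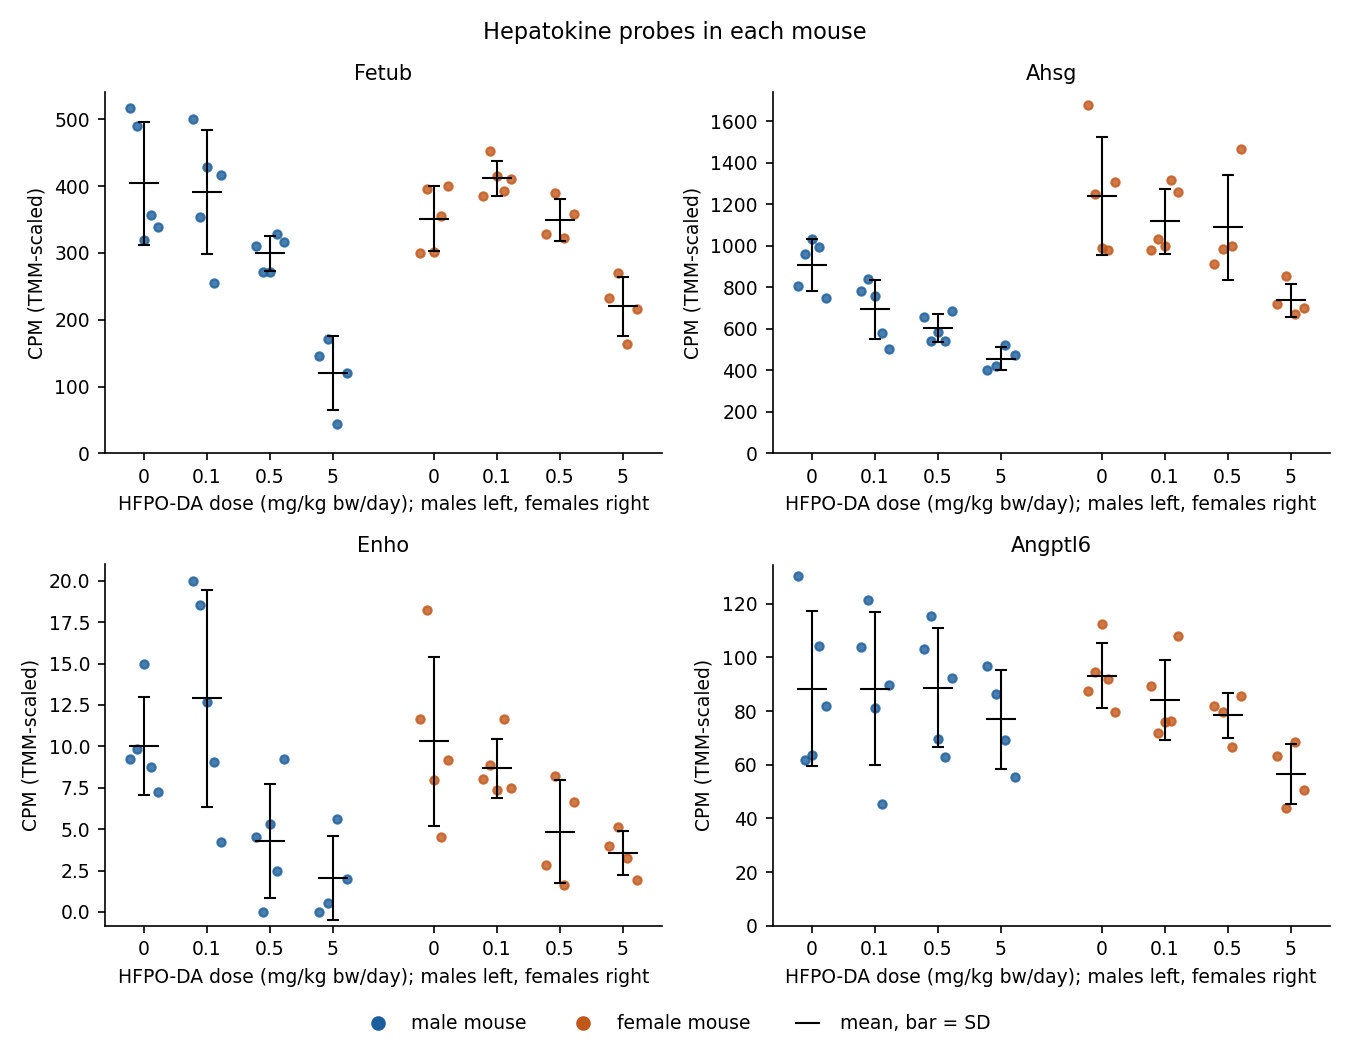
Level of Fetub, Ahsg, Enho and Angptl6 in every mouse (y axis, TMM-scaled CPM) at each HFPO-DA dose (x axis, mg/kg), males in blue on the left and females in orange on the right, with the group mean and SD in black. The 4 males at 5 mg/kg had 43.9 to 171 CPM of Fetub, all below the 319.7 to 517 CPM of the male controls.

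Fetub, encoding fetuin-B, showed the largest fall among Fetub, Ahsg and Angptl6 in males at 5 mg/kg, but not in females. The 5 male controls had 517, 489, 319.7, 357 and 339 CPM, and the 4 males at 5 mg/kg had 145, 171, 43.9 and 120.1 CPM. Every male at the highest dose was below every control. Groups that do not overlap in the lower direction were found for 4.80% of all probes in this comparison. The means were 404 ± 91.8 (SD, n = 5), 391 ± 92.4 (n = 5), 299 ± 26.3 (n = 5) and 120.2 ± 55.0 CPM (n = 4) in order of dose. Against controls, the log2 fold change at 5 mg/kg was -1.74 (SE 0.23, adjusted p = 4.93e-07), or 29.8% of the control level. At 0.5 mg/kg it was -0.43 (SE 0.21, adjusted p = 0.453), with groups that overlapped, and at 0.1 mg/kg -0.05 (SE 0.20, adjusted p = 1). From 0.5 to 5 mg/kg the probe was lower by -1.31 on the log2 scale (SE 0.23, adjusted p = 1.62e-04), again without overlap, which 2.67% of all probes showed in this direction. The lowest value, 43.9 CPM, came from the shallowest library, and without that mouse the log2 fold change at 5 mg/kg was -1.47 (adjusted p = 1.01e-06).

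In females, Fetub was lower at the highest dose by less. The controls had 300.5, 396, 302, 355 and 401 CPM and the 4 females at 5 mg/kg had 232, 269.9, 163 and 216 CPM, again without overlap, which 4.31% of all probes showed in this direction. The means were 351 ± 48.7 (n = 5), 411 ± 26.2 (n = 5), 349.6 ± 31.2 (n = 4) and 220.4 ± 44.3 CPM (n = 4) in order of dose. Against controls, the change at 5 mg/kg was -0.67 on the log2 scale (SE 0.22, adjusted p = 0.0921), or 62.8% of the control level. That call was lost when control replicate 2, 4 or 5 or 5 mg/kg replicate 1, 3 or 4 was left out, with adjusted p between 0.133 and 0.359. From 0.5 to 5 mg/kg the log2 difference was -0.67 (SE 0.23, adjusted p = 0.264), with groups that did not overlap, as for 3.73% of all probes in this direction. The fitted change at 5 mg/kg was 1.07 higher in females than in males on the log2 scale (SE 0.31, 95% interval 0.45 to 1.70). This difference between the sexes had an unadjusted p of 0.00119 and an adjusted p of 0.147 with edgeR. It was called with DESeq2, with no filter on low counts, with thinned counts, and when male 5 mg/kg replicate 1 or 2 or male control replicate 3 was left out, each giving 1 called probe in place of 0. Of all probes, 0.630% were called for this difference.

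Ahsg, encoding fetuin-A, was lower in both sexes at 5 mg/kg. The male controls had 805, 959.7, 1034, 996 and 747 CPM and the males at 5 mg/kg had 403, 422, 524 and 474 CPM. No treated male reached the lowest control, a separation that 4.80% of all probes showed in this direction. The means were 908 ± 125 (n = 5), 693 ± 142 (n = 5), 602 ± 66.9 (n = 5) and 456 ± 54.3 CPM (n = 4) in order of dose. This gave a log2 fold change at 5 mg/kg of -0.99 (SE 0.17, adjusted p = 6.98e-05), or 50.2% of the control level.

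At 0.5 mg/kg, Ahsg was the 1 hepatokine probe called in males. The 5 mice had 659, 540.4, 584, 542 and 686 CPM, all below the controls, as were 0.695% of all probes. The log2 fold change was -0.59 (SE 0.16, adjusted p = 0.0969). The adjusted p was just under the threshold, and the call was lost when any of 9 of the 10 mice compared was left out, control replicate 5 being the exception, leaving 0 called probes. At 0.1 mg/kg the log2 fold change was -0.39 (SE 0.16, adjusted p = 0.626), and the step from 0.5 to 5 mg/kg was -0.40 (SE 0.17, adjusted p = 0.156).

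The female controls had 1677, 1248, 989, 978 and 1308 CPM of Ahsg and the females at 5 mg/kg had 720.4, 853, 674 and 702 CPM, which did not overlap. In this comparison 4.31% of all probes did not overlap in the lower direction. The means were 1239.9 ± 286 (n = 5), 1117 ± 158 (n = 5), 1089.8 ± 253 (n = 4) and 737 ± 79.4 CPM (n = 4) in order of dose. Its log2 fold change in females was -0.75 at 5 mg/kg (SE 0.17, adjusted p = 0.00427), -0.19 at 0.5 mg/kg (SE 0.17, adjusted p = 1) and -0.15 at 0.1 mg/kg (SE 0.16, adjusted p = 1). The fitted change at 5 mg/kg differed between the sexes by 0.24 (95% interval -0.24 to 0.72, adjusted p = 0.835). This interval leaves room for a difference of either sign.

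**Figure D2:**
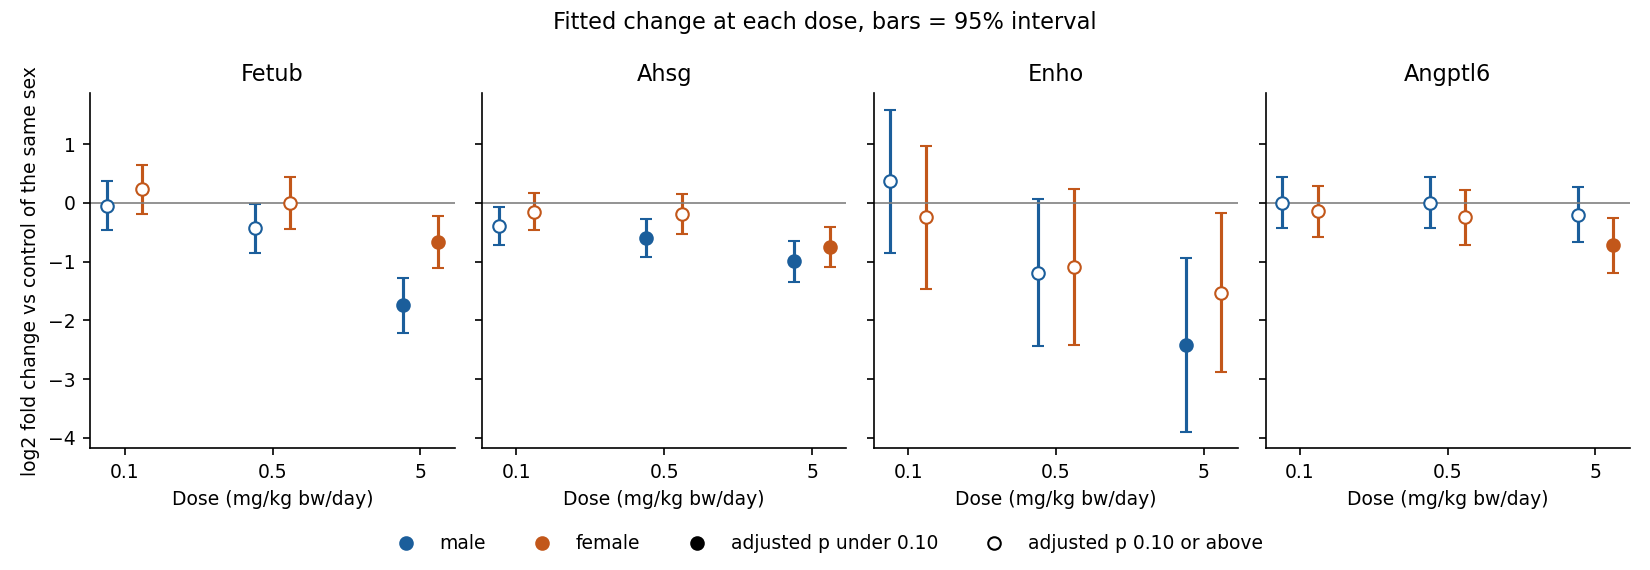
Fitted log2 fold change against the controls of the same sex (y axis) at each of the 3 doses above 0 (x axis, mg/kg) for Fetub, Ahsg, Enho and Angptl6, with 95% intervals as bars, males in blue, females in orange, and filled points for an adjusted p under 0.10. Fetub in males reached -1.74 at 5 mg/kg, and Ahsg in males was the only filled point at 0.5 mg/kg.

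The relatives of the fetuins were lower too. The type 3 cystatins of plasma include Ahsg, Fetub, Hrg (histidine-rich glycoprotein) and Kng1 and Kng2 (kininogens, the source of kinins). In males at 5 mg/kg, 5 of these 5 genes, Ahsg and Fetub included, were called lower, beside 8.49% of all probes. Their median log2 fold change was -1.13, beside -0.12 over all 18570 probes. Kng1 changed by -1.21 (SE 0.19, adjusted p = 9.40e-06), Hrg by -1.13 (SE 0.22, adjusted p = 5.18e-04) and Kng2 by -1.11 (SE 0.20, adjusted p = 1.28e-04). In females 4 of 5 were called lower, beside 2.26% of all probes. The median of the 5 genes was -0.67, which is the value of Fetub itself, beside -0.01 over all probes. Kng1 changed by -1.04 (SE 0.18, adjusted p = 1.69e-04) and Kng2 by -0.63 (SE 0.20, adjusted p = 0.0662). Hrg in females was not called, with a log2 fold change of -0.58 (SE 0.22, adjusted p = 0.186). Of the relatives alone, Hrg, Kng1 and Kng2 were thus called lower in males, and Kng1 and Kng2 in females. Kng1 and Kng2 are close paralogs, so reads could be shared between their probes.

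Other transcripts of hepatocytes moved in the same direction. The list of hepatocyte markers held Alb, Ttr, Trf, Tat, Apoa2, Apoh, Hpd, Cps1, Ass1 and Fah. Of these 10, 7 were called lower in males at the highest dose and 5 in females, and none was called higher. These shares of 70% and 50% stand beside 8.49% and 2.26% of all probes called lower. The medians were -0.89 and -0.59. The summed level of the 10 markers was 24722 to 31448 CPM in male controls and 16135 to 20725 CPM in males at 5 mg/kg, and 31206 to 39126 against 22250.0 to 27703 CPM in females. Alb, the serum albumin gene, was not called in either sex. It stood at -0.16 (adjusted p = 0.645) among males and -0.25 (adjusted p = 0.680) among females. Of 10 Kupffer cell, 10 stellate cell and 6 tested lymphocyte markers none was called in either sex at this dose. Of 10 endothelial markers Kdr (-0.95) and Oit3 (-1.03) were called lower in males, and of 6 tested cholangiocyte markers Tstd1 (-1.79). These shares of 20% and 16.7% compare with 12.7% of all probes called in males, 8.49% lower. The 1 adipocyte marker tested, Cidea, had no count in male controls and was called higher in males at 5 mg/kg. The other 5 listed adipocyte markers had no count in any male at that dose. None of these 3 lists had a call in females.

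To set the fetuins beside these markers, each was expressed as a percentage of the summed level of the 10 markers in the same mouse. The sum is unweighted, so markers with many counts weigh most. Alb, which was not called, had the most, 3237715 over all mice, and Cps1 had 9685. In males Fetub amounted to 1.24% to 1.77% in controls and 0.272% to 0.827% at 5 mg/kg, so the groups still did not overlap, and the mean log2 percentage differed by -1.32 (exact two-sided permutation test, p = 0.00794, the smallest this design allows, adjusted p = 0.0635 over 8 tests). In females Fetub amounted to 0.886% to 1.11% in controls and 0.681% to 1.21% at 5 mg/kg. These ranges overlapped, and the difference was -0.13 (exact permutation test, p = 0.476, adjusted p = 0.476). Ahsg differed by -0.42 in males (exact permutation test, p = 0.0794, adjusted p = 0.212) and -0.18 in females (p = 0.468 by the same permutation test, adjusted p = 0.476), with ranges that overlapped in both sexes. Fetub in males was therefore lower also relative to these markers, while the other 3 differences did not pass. What the fall of the markers contributed to the lower counts was not tested.

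**Figure D3:**
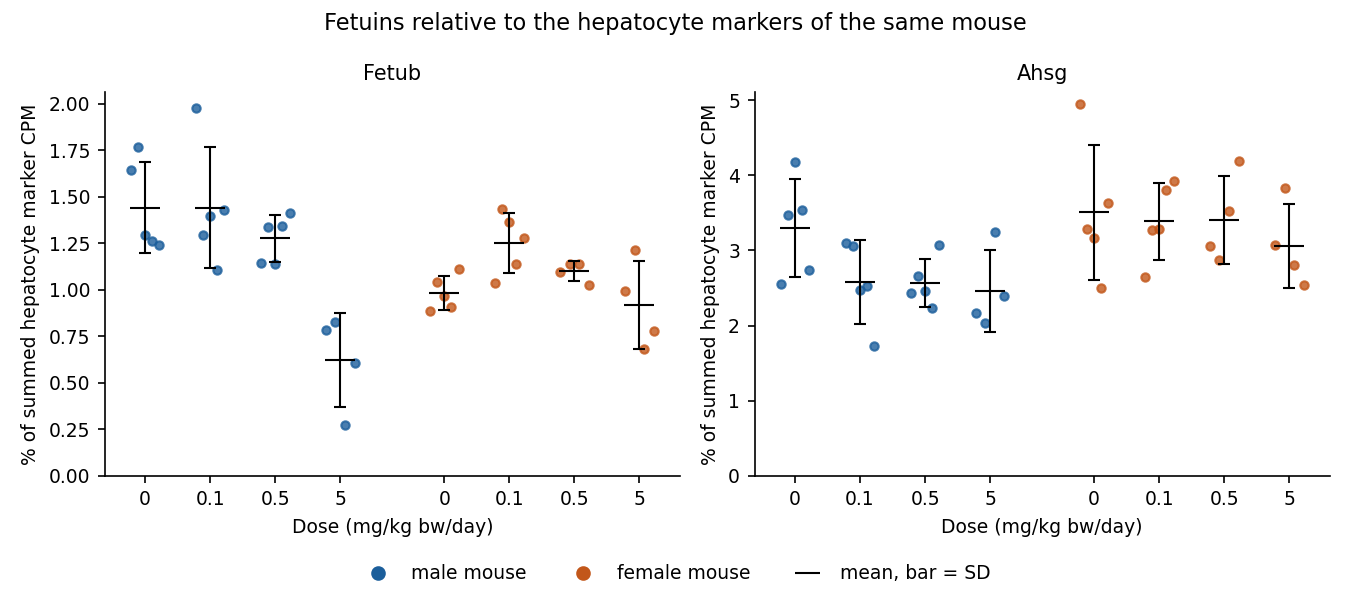
Fetub and Ahsg in every mouse as a percentage of the summed CPM of 10 hepatocyte markers (y axis) at each dose (x axis, mg/kg), males in blue on the left, females in orange on the right, with mean and SD in black. The males at 5 mg/kg had 0.272% to 0.827% of Fetub against 1.24% to 1.77% in their controls, and the groups overlapped for Fetub in females and for Ahsg in both sexes.

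Enho, encoding adropin, had low counts and was called in males. The male controls had 9.25, 9.86, 14.98, 8.77 and 7.25 CPM, and the males at 5 mg/kg had 0, 0.552, 5.63 and 2.01 CPM, all below the controls. As many as 4.80% of all probes showed such a separation in this direction. The means were 10.0 ± 2.94 (n = 5), 12.9 ± 6.55 (n = 5), 4.30 ± 3.43 (n = 5) and 2.05 ± 2.53 CPM (n = 4) in order of dose. Its log2 fold change was -2.42 at 5 mg/kg (SE 0.73, adjusted p = 0.0310) and -1.19 at 0.5 mg/kg (SE 0.62, adjusted p = 0.526). A fit of the males alone gave -2.38 at 5 mg/kg with an adjusted p of 0.146. With all libraries thinned to the smallest total, that change was -1.76 (adjusted p = 0.0881 in edgeR's test), still called. In females the controls had 11.6, 18.2, 7.96, 4.52 and 9.16 CPM and the mice at 5 mg/kg had 3.97, 5.11, 3.25 and 1.96 CPM, so that 1 treated mouse was above the lowest control. The means were 10.3 ± 5.12 (n = 5), 8.67 ± 1.76 (n = 5), 4.84 ± 3.10 (n = 4) and 3.57 ± 1.32 CPM (n = 4). Females at 5 mg/kg had a log2 fold change of -1.53 (SE 0.67, adjusted p = 0.301), which was called by DESeq2 (adjusted p = 0.0999) and in a fit of the females alone (adjusted p = 0.0294). Females and males differed by 0.89 (95% interval -1.03 to 2.81, adjusted p = 0.870), an interval that includes 0. As a percentage of the summed hepatocyte markers, Enho differed by -2.77 on the log2 scale in males (exact permutation test, p = 0.0397, adjusted p = 0.159) and -0.90 in females (exact permutation test, p = 0.119, adjusted p = 0.238). For these values 0.5 counts were added to Enho in every mouse, since a male at 5 mg/kg had a count of 0, and -2.77 depends on that choice. Without the addition, males had 0% to 0.0349% at 5 mg/kg against 0.0266% to 0.0606% in controls. The ranges overlapped in both sexes.

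Angptl6 showed the opposite arrangement of calls. The female controls had 87.4, 94.5, 112, 91.9 and 79.7 CPM and the females at 5 mg/kg had 63.25, 44.0, 68.4 and 50.8 CPM, all below the controls. Such a separation in the lower direction was found for 4.31% of all probes. The means were 93.1 ± 12.1 (n = 5), 84.2 ± 14.8 (n = 5), 78.4 ± 8.32 (n = 4) and 56.6 ± 11.2 CPM (n = 4) in order of dose, and the log2 fold change at 5 mg/kg was -0.72 (SE 0.23, adjusted p = 0.0839). The call was lost when female control replicate 1, 2, 3 or 4 or 5 mg/kg replicate 1, 2 or 4 was left out, with adjusted p between 0.101 and 0.296. In males the controls had 130.3, 61.6, 63.8, 104 and 82.0 CPM and the mice at 5 mg/kg had 96.9, 86.3, 69.4 and 55.3 CPM, which overlapped. For males the log2 fold change was -0.20 (SE 0.23, 95% interval -0.67 to 0.27, adjusted p = 0.687), and with total counts in place of TMM it was 0.017. Females and males differed by -0.52 (95% interval -1.17 to 0.14, adjusted p = 0.622). A call in females and none in males does not by itself show a difference between them. As a percentage of the summed hepatocyte markers, Angptl6 differed by -0.18 on the log2 scale in females (exact permutation test, p = 0.389, adjusted p = 0.476) and by 0.40 in males (exact permutation test, p = 0.151, adjusted p = 0.241).

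Scaling bears on these changes. The median log2 fold change of all probes in males at 5 mg/kg was -0.12 with TMM and 0.08 with total counts. Relative to that median, Fetub changed by -1.63 under both scalings, Ahsg by -0.88 and -0.83, Enho by -2.30 and -2.17, and Angptl6 by -0.08 and -0.06.

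Fgf21 was near the limit of detection. Its probes, Fgf21_71031 and Fgf21_29090, had 494 and 403 counts in all 37 mice together, with a count in 23 and 22 mice. In a single library a count of 0 allows a level of up to 0.216 to 0.377 CPM in females and 0.284 to 1.43 CPM in males, taking 3 counts of the total and counting error only. On Fgf21_29090 the male controls had 1.44, 0.519, 0, 2.53 and 0 CPM and the males at 5 mg/kg had 7.55, 4.85, 7.88 and 1.39 CPM, so 3 of 4 treated males were above every control. The log2 fold change was 2.57 (SE 1.64, 95% interval -0.75 to 5.88, adjusted p = 0.364). In females the controls had 2.20, 0, 0.843, 0.688 and 0 CPM and the mice at 5 mg/kg had 2.80, 4.47, 4.21 and 0.425 CPM, a log2 fold change of 1.98 (SE 1.61, 95% interval -1.27 to 5.23, adjusted p = 0.830). All 8 mice at 5 mg/kg had a count on this probe, from 5 to 49.

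The other Fgf21 probe was less regular. On Fgf21_71031 the male controls had 1.92, 0, 0, 3.99 and 0 CPM and the males at 5 mg/kg had 0, 7.50, 15 and 0 CPM, so that 2 treated males with 32 and 9 counts on Fgf21_29090 had none here. The log2 fold change was 2.22 (SE 1.67, adjusted p = 0.466) in males and 0.64 (SE 1.62, adjusted p = 1) in females, where controls had 5.55, 2.05, 0.468, 0.393 and 0 CPM and treated mice 5.72, 0.182, 3.60 and 1.11 CPM. By an exact two-sided permutation test, the mean log2 CPM of Fgf21_29090 alone was 2.76 higher in males at 5 mg/kg (p = 0.0476, adjusted p = 0.175 over 6 tests). In females it was 1.95 higher (exact permutation test, p = 0.0873, adjusted p = 0.175). With both probes summed, the mean log2 CPM was 2.99 higher in males at 5 mg/kg (exact two-sided permutation test, p = 0.0794, adjusted p = 0.175 over 6 tests) and 1.70 higher in females (exact permutation test, p = 0.127, adjusted p = 0.190). With all libraries thinned to the smallest total, Fgf21_29090 was called higher in males at 5 mg/kg, which raised the calls among the 7 probes from 3 to 4, and no other alternative called an Fgf21 probe. The intervals of the fits with all counts reach from a fall to a rise of over 5 on the log2 scale in males, so the call depends on the processing.

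**Figure D4:**
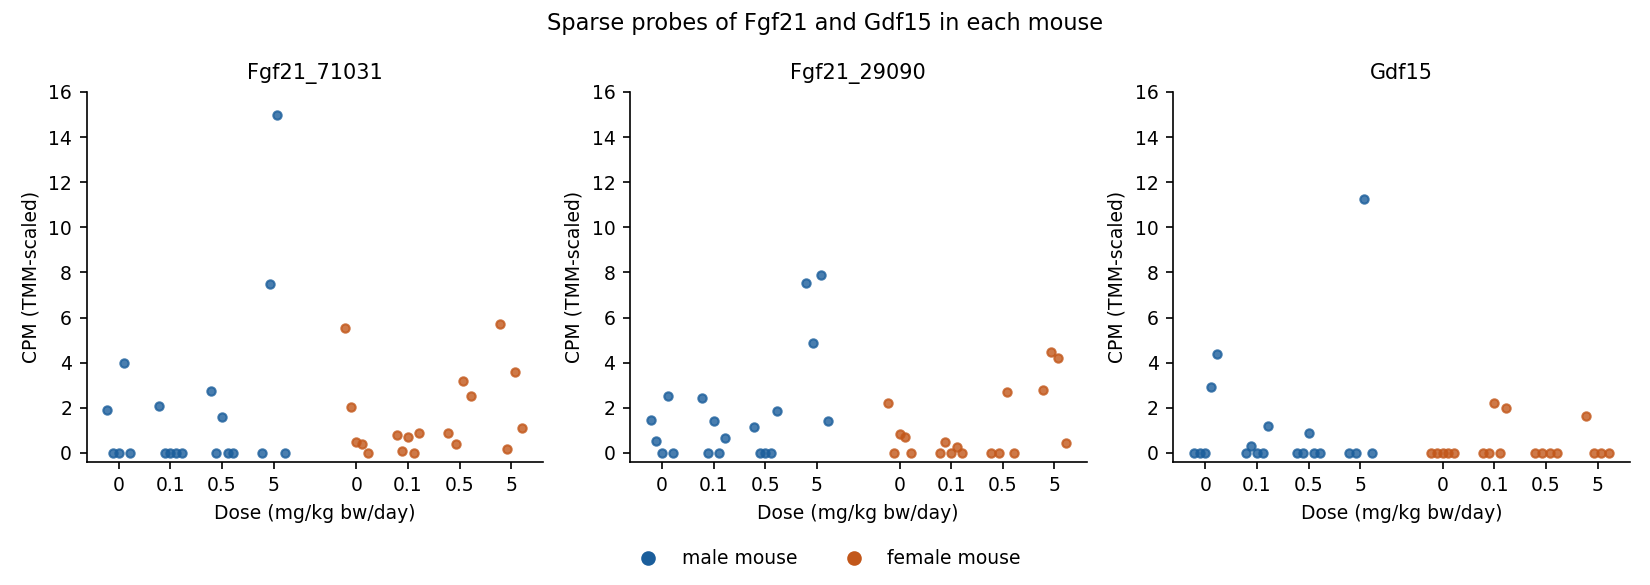
Level of both Fgf21 probes and of Gdf15 in every mouse (y axis, TMM-scaled CPM) at each dose (x axis, mg/kg), males in blue on the left and females in orange on the right. On Fgf21_29090 all 8 mice at 5 mg/kg were above 0, and the highest value of Gdf15, 11.3 CPM, was that of 1 male.

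The same livers held a strong response of other PPARα target genes. Of 15 such genes, at the highest dose 13 were called higher in males, 12 were in females and none was called lower, with median log2 fold changes of 3.17 and 2.25, against 4.21% and 2.26% of all probes called higher. Ehhadh, the peroxisomal bifunctional enzyme, rose by 5.51 in males (SE 0.30, adjusted p = 2.45e-17) and 5.03 in females (SE 0.29, adjusted p = 3.29e-16). Hsd17b11, an enzyme of lipid droplets, rose by 3.17 (SE 0.20, adjusted p = 9.77e-16) and 3.04 (SE 0.19, adjusted p = 4.02e-15). Cyp4a10, a fatty acid ω-hydroxylase with close paralogs, rose by 6.47 (SE 0.61, adjusted p = 2.48e-10) and 4.38 (SE 0.55, adjusted p = 3.45e-07). The genes not called in either sex were Cpt1a, at -0.08 in males and 0.84 in females, and Creb3l3, at 0.25 and 0.26. Creb3l3 encodes a liver transcription factor known to act on the Fgf21 gene.

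Gdf15 was the sparsest member, with 172 counts in all, found in 9 of 37 mice. The male controls had 0, 0, 0, 2.92 and 4.40 CPM, and of the 4 males at 5 mg/kg only 1 had counts, at 11.3 CPM. That mouse was the shallowest library, and its value rests on 30 counts. The log2 fold change in males was 0.91 (SE 2.18, adjusted p = 0.873) and -6.74 without that mouse (adjusted p = 0.242), a fitted value that then rests on a treated group at 0. All 5 female controls and all 4 females at 0.5 mg/kg had no count, 2 of 5 females at 0.1 mg/kg had 2.20 and 1.997 CPM, and 1 of 4 females at 5 mg/kg had 1.63 CPM. No fold is given for females, and no order of doses can be read from these counts.

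Genes of stress programs known to include Gdf15 were called in both directions in males. The calls made up 25% of the integrated stress response genes and 27.3% of the p53 targets tested in males, beside 12.7% of all probes, and 0% and 9.09% in females, beside 4.52%. Of 12 tested genes of the integrated stress response, the program set off by amino acid shortage and misfolded proteins, 1 was called higher (Vldlr, 1.22, SE 0.46, adjusted p = 0.0879) and 2 lower in males, Ppp1r15a (-1.82, SE 0.69, adjusted p = 0.0944) and Ddit4, which had no count in any male at 5 mg/kg. None was called in females, and the medians were 0.03 and 0.12. Of 11 tested p53 targets, 2 were called higher in males and 1 in females. Bax, a pro-apoptotic gene, rose by 0.71 in males (SE 0.20, adjusted p = 0.0209) and 0.82 in females (SE 0.20, adjusted p = 0.0108). Ccng1, encoding cyclin G1, rose by 0.76 in males (SE 0.28, adjusted p = 0.0811), and Bbc3, another pro-apoptotic gene, fell in males, at -2.44 (SE 0.65, adjusted p = 0.0117).

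Other hepatokines changed gene by gene. Of 20 tested, males at 5 mg/kg had 1 higher and 4 lower calls and females 1 higher and 3 lower, and the medians were -0.43 and -0.14. The calls made up 25% of those tested in males and 20% in females, beside 12.7% and 4.52% of all probes. Lect2, a chemotactic hepatokine linked to insulin resistance, was called lower in both sexes, at -1.07 in males (SE 0.22, adjusted p = 0.00109) and -1.73 in females (SE 0.23, adjusted p = 7.86e-07). Orm1, an acute phase protein with near-identical copies, was lower in males at -2.95 (SE 0.46, adjusted p = 1.24e-05), beside -0.73 in females (adjusted p = 0.553). Igfbp2, a carrier of insulin-like growth factors, rose in females by 1.91 (SE 0.35, adjusted p = 2.21e-04), beside 0.72 in males (adjusted p = 0.193). Selenop, the selenium transport protein, fell in females, at -0.68 (SE 0.15, adjusted p = 0.00220), beside -0.35 in males (adjusted p = 0.135). Rbp4 and Igf1 made up the other lower calls in males and Smoc1 in females. Gpnmb, the call in the higher direction in males, had no count in any male control and 8.38 ± 11.1 CPM (n = 4) at 5 mg/kg.

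**Figure D5:**
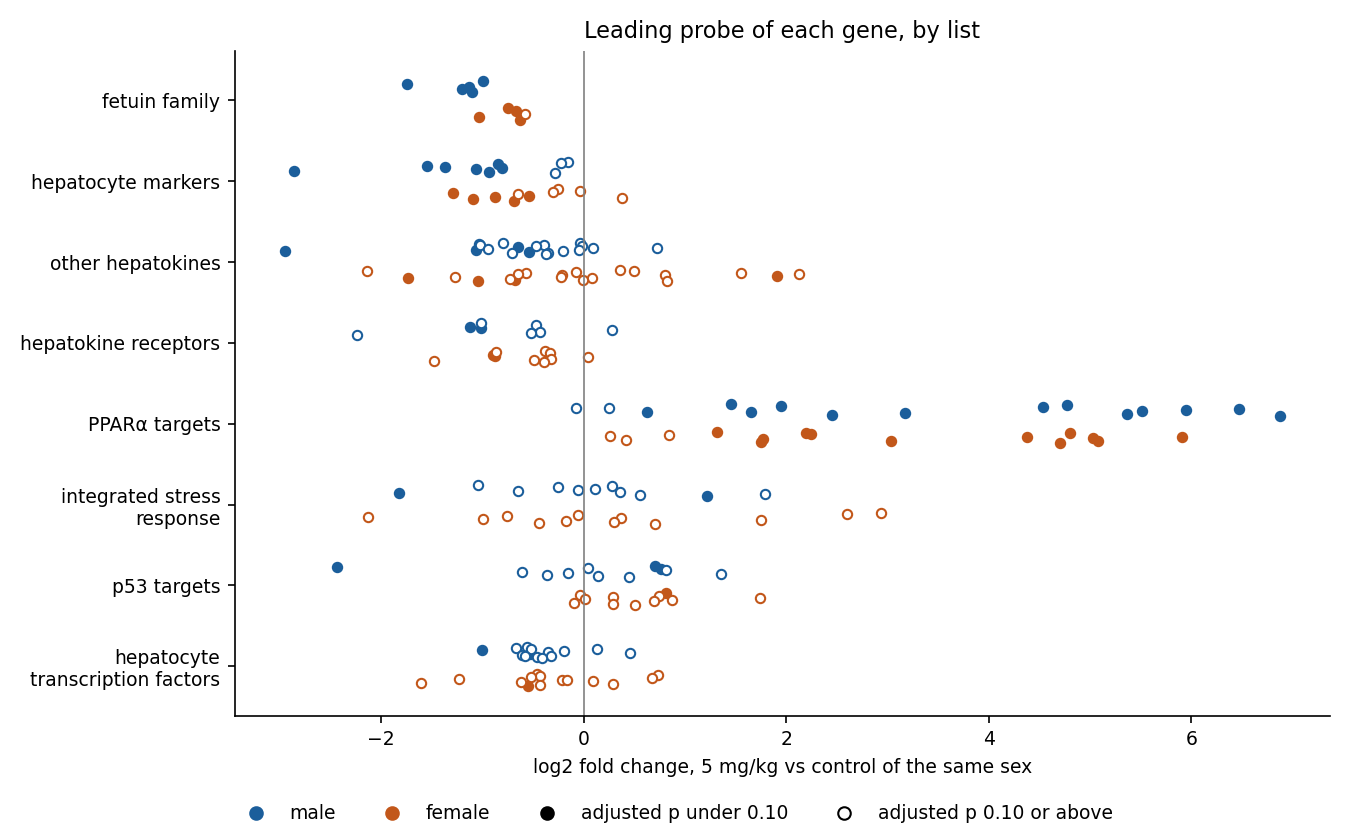
Fitted log2 fold change at 5 mg/kg against the controls of the same sex (x axis) for the leading probe of each tested gene of 8 lists (rows), males in blue, females in orange, with filled points for an adjusted p under 0.10. Gpnmb, Cntn6, Ret and Ddit4 in males are left out since 1 of the groups compared had no count. The fetuin family lay below 0 in both sexes, with medians of -1.13 and -0.67, and the PPARα targets lay mostly above, with medians of 3.17 and 2.25.

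Receptors that receive these signals were also measured. Of 10 tested, 1 was called higher and 2 lower in males and 2 lower in females, with medians of -0.77 and -0.44. These calls at 5 mg/kg were 30% and 20% of those tested, beside 12.7% and 4.52% of all probes. The lower calls in both sexes were Fgfr3, at -1.13 (SE 0.23, adjusted p = 8.04e-04) and -0.89 (SE 0.23, adjusted p = 0.0139), and Fgfr4, the main fibroblast growth factor receptor of hepatocytes, at -1.02 (SE 0.28, adjusted p = 0.0142) and -0.88 (SE 0.27, adjusted p = 0.0666). Klb, the co-receptor that FGF21 needs, was not called, its log2 fold changes being -0.52 for males (adjusted p = 0.392) and -0.49 for females (adjusted p = 0.736). Fgfr1, its usual partner for FGF21, had -1.02 (adjusted p = 0.383) and -0.87 (adjusted p = 0.789). Insr, the insulin receptor, had -0.43 (adjusted p = 0.272) and -0.32 (adjusted p = 0.761). Cntn6, encoding a contactin proposed as a partner of adropin, was the higher call in males, where no control had a count and 1 of 4 mice at 5 mg/kg did. Gfral, the GDF15 receptor, and Astl, the ovastacin gene, did not pass the filter on low counts, with 5 and 21 counts in all. Of 14 hepatocyte transcription factors, Foxa3 (-1.003, SE 0.26, adjusted p = 0.00887) and Nr1h4 (-0.53, SE 0.19, adjusted p = 0.0849) were called lower in males and Rxra (-0.55, SE 0.16, adjusted p = 0.0437) in females. All calls of this list were lower. They made up 14.3% and 7.14% of it, beside 8.49% and 2.26% of all probes called lower. Calls in either direction were 12.7% and 4.52% of all probes. Rxra was not called in males by edgeR, whereas the authors, who used DESeq2, reported it lower at this dose in both sexes. Cebpa, a C/EBP factor of hepatocytes, was not called, at -0.56 (adjusted p = 0.139) and -0.46 (adjusted p = 0.435).

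The probes that varied most like each member were ranked by Pearson's r of log2 CPM over the 37 mice, with the r after the mean of each of the 8 groups was taken out given second. For Ahsg these were Serpinc1, encoding antithrombin (0.91, 0.56), Serpind1, encoding heparin cofactor II (0.90, 0.72), and its neighbour Hrg (0.89, 0.61). For Fetub they were Cyp2c54 (0.90, 0.59) and Cyp2c50 (0.90, 0.57), paralogous cytochromes P450 whose reads may be shared, and the zinc transporter gene Slc39a14 (0.89, 0.72). For Enho they were Gcnt4 (0.84, 0.76), Fndc4 (0.83, 0.78) and Naglu (0.79, 0.62), and for Angptl6 Serpina11 (0.61, 0.49), Ncor1 (0.59, 0.58) and Tcaim (0.58, 0.52). Ahsg and Fetub, although neighbours, had an r of 0.56 that became -0.06 within groups, so mice of 1 group with more Ahsg did not have more Fetub. Ahsg and Enho had 0.62 and 0.55. The values of Fgf21 (at most 0.63, with Pole2) and Gdf15 (at most 0.71, with Olfr815) rest on mice without counts and are not read further. These mice share doses, sex and depth, and no test was made.

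Between the control groups, no hepatokine probe was called by edgeR, beside 2.60% of all probes. At an unadjusted p under 0.05 there were 2, Ahsg and Gdf15, and DESeq2 called 1, Ahsg. Ahsg was higher in female than in male controls by 0.45 on the log2 scale (SE 0.16, 95% interval 0.13 to 0.77, adjusted p = 0.185), with 978 to 1677 against 747 to 1034 CPM. Fetub differed by -0.20 (SE 0.20, adjusted p = 0.937), Angptl6 by 0.08 (SE 0.22, adjusted p = 0.9998) and Enho by 0.04 (SE 0.60, adjusted p = 0.9999). The intervals of Fetub, from -0.62 to 0.21, and Angptl6, from -0.36 to 0.51, lay within 1 log2 unit of 0.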

How the data were processed

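Livers of 37 mice were analysed as deposited, 3 of 40 having been removed by the authors. The authors sequenced the ligated TempO-Seq probes, aligned the reads to the probe sequences and deposited raw counts per probe, without molecular identifiers. The submitters' processing notes name bcl2fastq 2.17.1.14 and Bowtie. The genome build behind the probes is not given in the sources used here. Groups were taken from the labels, and every column matched a mouse.

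Counts of all mice were fitted together in edgeR (version 4.0.16, under R 4.3.3). The filter filterByExpr left 18570 of 30146 probes, which were scaled by TMM and fitted with a mean for each of 8 groups. Quasi-likelihood tests were adjusted by Benjamini-Hochberg over all kept probes, with calls at an adjusted p under 0.10, in 10 comparisons. SE was the log2 fold change divided by the square root of F. All members were named, with the members of the gene lists whose calls or roles the text describes, and the 3 probes most like each member by Pearson's r. The members and lists were chosen with earlier results of these data known. Alternatives were DESeq2 1.42.0 and its size factors, other filters, each sex fitted apart, thinned counts, a threshold of 0.05 and each mouse left out. Scaling by total counts, the exact permutation tests of Fgf21 and the percentages of hepatocyte markers were added after seeing the data. The fit was tested on simulated data. Positions are from GENCODE vM21 and upstream sequences from RefSeq. Some single genes of the lists are not reported here.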

Additional observations from a re-analysis of the deposited data

Results flagged for a closer look

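Within groups of 4 or 5 mice, 1 mouse stood apart from the rest by Dixon's 95% criterion in 7 of the 54 groups of values that had any spread. For Gdf15 these were male replicate 3 at 5 mg/kg with 11.3 CPM, male replicate 5 at 0.1 mg/kg with 1.17 CPM, male replicate 3 at 0.5 mg/kg with 0.863 CPM and female replicate 1 at 5 mg/kg with 1.63 CPM. For Fgf21 they were female replicate 3 at 0.5 mg/kg with 2.71 CPM on Fgf21_29090 and male replicate 1 at 0.1 mg/kg with 2.08 CPM on Fgf21_71031. For Ahsg, female replicate 4 at 0.5 mg/kg had 1465 CPM, above the other 3 mice of its group, which had 913 to 998 CPM. In 5 of the 7 groups the mouse was the only one with counts. The exceptions were Ahsg in females at 0.5 mg/kg and Gdf15 in males at 0.1 mg/kg, where a second mouse had 2 counts. A mouse that alone has counts meets the criterion at any level, so those 5 flags were fixed by the sparse counts. The criterion was not adjusted for the 54 groups examined.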

How the results depend on the processing

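The lower levels of Fetub in males and of Ahsg in both sexes at 5 mg/kg kept their direction and call under each of 19 alternatives, with log2 fold changes of -1.99 to -1.47, -1.07 to -0.75 and, for Ahsg in females, -0.84 to -0.62. The single call in males at 0.5 mg/kg became 0 with DESeq2 size factors, with total counts, with a mean of at least 10 counts, with each sex fitted apart and at a threshold of 0.05, and ranged from 0 to 1 when 1 mouse was left out. The 3 calls in females at 5 mg/kg became 1, Ahsg, at a threshold of 0.05, where Fetub (-0.67) and Angptl6 (-0.72) were lost, and ranged from 1 to 2 without 1 mouse, so that no omission kept all 3, 1 being reached without control replicate 2 or 4 or 5 mg/kg replicate 1 or 4. Without the mice whose omission lost the call, Fetub in females ranged from -0.70 to -0.55 and Angptl6 from -0.78 to -0.63. Over all single omissions and other alternatives, Fetub in females ranged from -0.80 to -0.55 and Angptl6 from -0.82 to -0.63. Angptl6 in females was lost with total counts (-0.64) and with no filter (-0.72). Enho in males was lost with each sex fitted apart (-2.38), and Enho in females was gained with DESeq2 (-1.52) and with each sex fitted apart (-1.53). Calls in females from 0.5 to 5 mg/kg rose from 0 to 2 with DESeq2 and to 1 with each sex fitted apart. Calls in males for that step ranged from 1 to 2 without 1 mouse, Enho being added without 5 mg/kg replicate 3. The difference between the sexes gave 1 call in place of 0 with no filter, with DESeq2 and with thinned counts, and 0 to 1 without 1 mouse. The 3 calls in males at 5 mg/kg became 4 with thinned counts, Fgf21_29090 being added, and 2 with each sex fitted apart. The comparison of control groups gave 1 call in place of 0 with total counts and with DESeq2. Direction turned for Angptl6 in males with total counts (0.017), for Gdf15 in males without 5 mg/kg replicate 3 (-6.74, with 1.91 as the highest value without 1 mouse) and for Fgf21 in females without 5 mg/kg replicate 1 (-0.051, with 1.85 as the highest). The cause was not tested. Alternatives for probes removed by the filter were not run because all 7 probes passed. No paired analysis was possible because each mouse received a single dose level and the labels do not link mice of different groups. Depth limits Fgf21 and Gdf15, whose zeros cannot be read as absence.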
